A study of Mus musculus with 816 samples.

Results

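Interferon gamma (IFNg) was combined with a low dose of lipopolysaccharide (LPS) in cultures of primary mouse microglia, and these cultures were compared gene by gene, after 72 h, with cultures that received the same LPS dose without IFNg. The cultures were taken by their labels, with earlier results of these data known: 7 were labelled LPS_lo + IFNg and 11 LPS_lo, which makes 18 of the 784 cultures and of the 816 samples in the series. The label LPS_lo stands for 0.00001 µg/µl of LPS, and the label of the combination carries that one concentration only, so the dose of IFNg in it is not known here. Cultures with IFNg alone (0.0001 µg/µl, n = 6) and untreated cultures (None, n = 25), both also at 72 h, completed a layout in which LPS_lo and IFNg were each present or absent. All 49 cultures were neonatal mouse microglia from a commercial supplier, grown in wells of multi-well plates and taken from 1 lot of cells. The series covers many other stimuli of such cultures and microglia taken from mice, all read by sequencing the 3′ ends of transcripts. The paper speaks of biological replicates in each condition. The wells are not described as separate preparations of cells, so p-values measure only the spread between these wells, which may be technical.

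IFNg is a cytokine made mainly by T and NK cells. It binds a receptor of the chains encoded by Ifngr1 and Ifngr2, and signalling through the kinases JAK1 and JAK2 acts on genes with gamma-activated sites (GAS) in their DNA, among them the gene of the transcription factor IRF1. Macrophages and microglia answer with GTPases that attack intracellular pathogens, with antigen presentation on MHC class I and class II, and with chemokines that attract T cells. LPS, a component of the bacterial outer membrane, is sensed by TLR4 and drives NF-kB and a secondary type I interferon response. Both signals together are the textbook way to induce Nos2, the inducible nitric oxide synthase, in mouse macrophages.

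Depth, given by what 1 read is worth in a culture, was 2.58 to 10.4 M mapped reads (M for 1000000) in LPS_lo + IFNg cultures and 1.05 to 11.3 M in LPS_lo cultures. Values are reads of a gene per 1000000 mapped reads (CPM), so 1 CPM stands for only a few reads. The summed level of 13 microglial marker genes was 2064 to 2936 CPM in LPS_lo + IFNg cultures and 2784 to 4726 CPM in LPS_lo cultures, and 2 of the 13 (Fcrls and Itgam) fell in the test described next, as did 1.2% of all genes tested. The other 11 were not called, and among them Aif1 had the largest log2 fold change, at 1.08. An exact rank-sum test called 1 of the 13 higher and 2 lower. Of the defining microglial markers, P2ry12 had a median of 0 in LPS_lo + IFNg cultures and Gpr34 a median of 0 in both groups, and Tmem119 was at 0.964 to 38.2 CPM (median 1.94) with IFNg and at 3.08 to 51.8 CPM (median 16.3) in LPS_lo cultures. These 3 are among those not called. All 7 markers of T and NK cells, Ifng among them, had a median of 0 in both groups and a summed level of at most 0.332 CPM in LPS_lo + IFNg cultures, and markers of neurons, B cells and neutrophils summed to at most 3.73 CPM there. Those of astrocytes, oligodendrocytes, fibroblasts and endothelial cells reached 32, 48.8, 12.1 and 52.3 CPM. Of 5 dendritic cell markers, Xcr1 rose, 2 were not called and 2 were too low to test, and their sum was 0 to 106 CPM with IFNg and 0.638 to 23.3 CPM without it. The part of these cell types in the results was not tested. In bulk cultures, fewer cells of a type and less RNA per cell cannot be told apart.

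In limma, fitted to log2(CPM + 1) of all 49 cultures, 264 of 11631 genes tested (2.27%) passed an adjusted p of 0.05 and differed by 1 or more on the log2 scale between LPS_lo + IFNg and LPS_lo cultures. Of these genes, 124 (1.07% of genes tested) were higher and 140 (1.2%) were lower with IFNg. The median log2 fold change over all genes tested was -0.09. Of the 11631 genes, 1359 had an unadjusted limma p under 0.05, and an exact rank-sum test called 188 higher and 179 lower. Among called genes, 76 of the higher and 44 of the lower ones did not overlap between the 7 and the 11 cultures, against 109 (0.937%) and 63 (0.542%) over all genes tested. The largest rises were those of Nos2, Clic5, Serpina3g and Upp1, and the largest falls those of Saa3 and Ccl9. Both groups were present on 2 culture plates, and on only 1 of these also in the same library pool. Fits within each plate, chosen after seeing the data, could be made for 230 of the 264 genes, and all 230 had the same direction on both plates. The 264 genes were called in a fit that holds these same wells, which favours such agreement. Well position was uneven between groups. Middle wells made up 6 of 7 LPS_lo + IFNg, 9 of 11 LPS_lo, 2 of 6 IFNg and 10 of 25 untreated cultures, and the others lay at an edge or corner of the plate. Middle wells with IFNg alone or without treatment were all on plate MGm160930B, so that position and plate cannot be told apart in these groups. A fit of middle wells alone, also chosen after seeing the data, called 738 genes in this comparison, 256 of the 264 among them and 0 of the 264 in the other direction. Middle wells were part of the first fit as well, which again favours agreement.

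**Figure D1:**
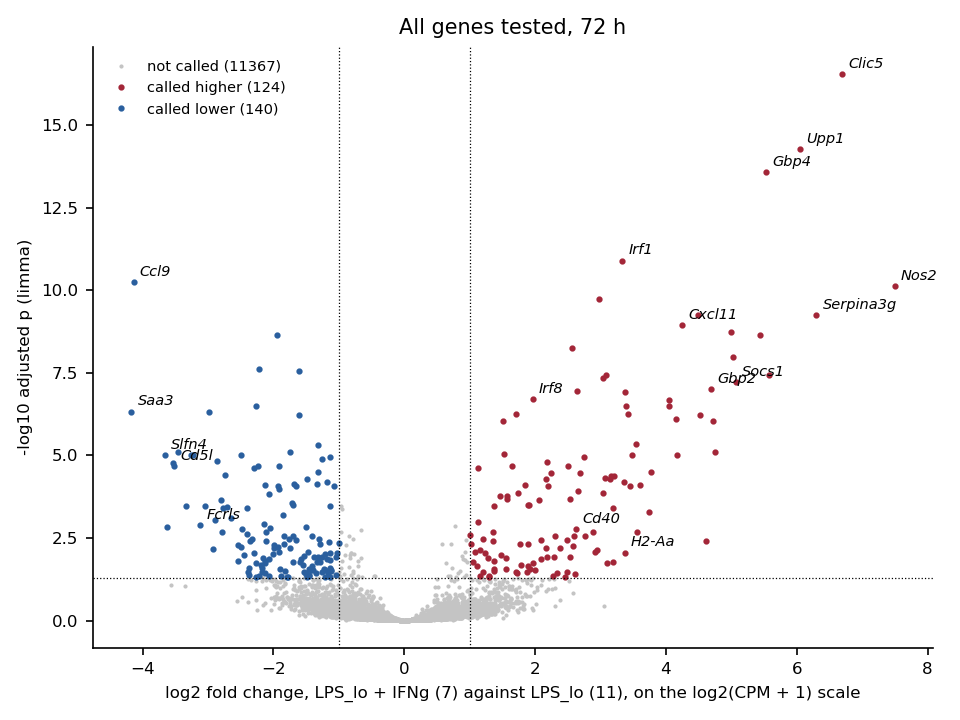
Difference between LPS_lo + IFNg (n = 7) and LPS_lo (n = 11) cultures at 72 h for each of the 11631 genes tested, with the log2 fold change on the x axis and -log10 of the limma adjusted p on the y axis. Called genes are coloured, 124 higher and 140 lower, and Nos2 and Clic5 lie farthest to the right while Saa3 and Ccl9 lie farthest to the left.

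Of 13 genes for the IFNg receptor and its signalling, 6 rose, 0 fell and 7 were not called, with a median log2 fold change of 1.15. The receptor chains were not among those that rose. Ifngr1 ran at 9.19 to 51.5 CPM (median 31.4) in LPS_lo + IFNg and 21.8 to 52.9 CPM (median 40.1) in LPS_lo cultures, and Ifngr2 at 80.2 to 373 CPM (median 322) and 46.6 to 514 CPM (median 221), with overlapping groups for both (limma adjusted p = 0.719 and 0.951). Irf1, the transcription factor that carries many IFNg responses onward, ran at 546 to 771 CPM (median 582) with IFNg and 26.5 to 99.4 CPM (median 64.7) without it. Every LPS_lo + IFNg culture was above every LPS_lo culture, and the log2 fold change was 3.33 ± 0.31 (SE, limma adjusted p = 1.26e-11). Irf8, a factor of the myeloid lineage, also separated the groups, at 858 to 1742 CPM (median 945) against 143 to 507 CPM (median 305) (1.96 ± 0.26, adjusted p = 1.95e-07).

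Socs1, which encodes the feedback inhibitor of JAK signalling, had the largest rise of this group. It ran at 436 to 995 CPM (median 712) in LPS_lo + IFNg cultures and 4.11 to 41.5 CPM (median 24) in LPS_lo cultures, and the groups were far apart (5.06 ± 0.63, limma adjusted p = 6.01e-08). Socs3, a related inhibitor, rose by 2.09 on the log2 scale (limma adjusted p = 0.0138), and Batf2, a transcription factor induced by IFNg, rose by 3.42 (adjusted p = 5.72e-07).

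Promoter sequences were available from RefSeq (GRCm38.p6) for 83 of the 124 genes that rose and 118 of the 140 that fell. Each covers 250 bases before and 50 bases after a gene's start, and was searched on both strands for TTCNNNGAA, the core of a GAS, and GAAA, any 2 bases and GAAA again, the core of an interferon-stimulated response element (ISRE). The GAS letters were in 16.9% of the promoters of genes that rose (14 genes) and the ISRE letters in 18.1% (15 genes), while over all 8297 promoters of genes tested the shares were 8.17% and 4.0%. Among genes that fell they were 7.63% and 6.78%. Over the 27025 genes with a promoter in the table, 9.55% held the GAS letters and 3.99% the ISRE letters. Such a match is a description of the letters and not evidence of binding. Promoters of 4 genes that rose are printed 5′ to 3′ on the strand of the gene, with the matches in capitals, to show 1 with a GAS (Irf1), 1 with both (Igtp, a GTPase), 1 with an ISRE read on the reverse strand (Gbp2) and 1 with overlapping ISRE matches (Socs1).
Irf1: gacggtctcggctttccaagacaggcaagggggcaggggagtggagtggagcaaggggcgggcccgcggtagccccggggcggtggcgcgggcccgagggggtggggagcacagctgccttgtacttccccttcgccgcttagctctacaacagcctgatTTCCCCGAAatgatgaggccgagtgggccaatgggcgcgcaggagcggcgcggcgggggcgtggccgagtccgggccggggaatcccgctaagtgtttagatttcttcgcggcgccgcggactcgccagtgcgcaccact
Igtp: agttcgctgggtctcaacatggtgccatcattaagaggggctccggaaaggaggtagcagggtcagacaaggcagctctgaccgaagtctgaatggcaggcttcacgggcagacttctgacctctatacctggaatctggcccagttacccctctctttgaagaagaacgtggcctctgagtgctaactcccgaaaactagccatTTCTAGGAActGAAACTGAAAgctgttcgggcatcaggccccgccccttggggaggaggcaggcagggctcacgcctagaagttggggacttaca
Gbp2: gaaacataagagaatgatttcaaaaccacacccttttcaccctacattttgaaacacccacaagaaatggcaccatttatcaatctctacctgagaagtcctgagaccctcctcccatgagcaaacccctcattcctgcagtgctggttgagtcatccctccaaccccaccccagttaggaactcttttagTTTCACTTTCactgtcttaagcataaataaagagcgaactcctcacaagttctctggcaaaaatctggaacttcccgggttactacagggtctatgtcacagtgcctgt
Socs1: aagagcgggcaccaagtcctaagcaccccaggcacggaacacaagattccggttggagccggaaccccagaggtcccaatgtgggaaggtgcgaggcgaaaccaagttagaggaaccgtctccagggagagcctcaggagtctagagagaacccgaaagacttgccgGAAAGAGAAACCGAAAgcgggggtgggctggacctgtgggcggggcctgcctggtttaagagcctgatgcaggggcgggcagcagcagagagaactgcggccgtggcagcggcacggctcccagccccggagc
The Irf1 window, 1 of 2 listed for the gene, is chr11:53769764-53770063 on the plus strand, and its match begins 90 bases before the start. That of Igtp is chr11:58199306-58199605 on the plus strand, with a GAS match 45 bases and an ISRE match 34 bases before the start. The Gbp2 window is chr3:142620413-142620712 on the plus strand, with its match 59 bases before the start. The Socs1 window is chr16:10785487-10785786 on the minus strand, where the matches begin 83 and 77 bases before the start and share bases.

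Nos2 had the largest rise of all genes tested. It ran at 965 to 3866 CPM (median 1233) in LPS_lo + IFNg cultures, 0.663 to 35 CPM (median 12) in LPS_lo cultures, 0 to 15.2 CPM (median 3.2) with IFNg alone and 0 to 13.8 CPM (median 0) in untreated cultures. The lowest LPS_lo + IFNg culture was thus far above every culture of the other groups. The log2 fold change against LPS_lo was 7.50 ± 0.73 (SE, limma adjusted p = 7.34e-11), against 0.33 ± 0.69 for IFNg without LPS (adjusted p = 0.799). The difference between these responses was 7.17 ± 1.01 (limma interaction, adjusted p = 6.61e-06). Plates differed in the level: LPS_lo + IFNg wells ran at 1233 to 3866 CPM on plate MGm160930B and at 965 to 1111 CPM on plate MGm161010D, and untreated wells at 7.77 to 13.8 CPM on the first of these and at most 1.38 CPM on every other plate. Within these plates the log2 fold changes were 7.19 and 8.28. Slc7a2, a transporter of arginine, the substrate of the enzyme, rose by 2.88 (limma adjusted p = 0.00213), and Wars, the tryptophan tRNA synthetase induced by IFNg, rose by 1.48 (adjusted p = 0.0102). The other 5 tested genes of nitric oxide, itaconate and tryptophan metabolism were not called. Irg1, which makes itaconate, was at 146 to 406 CPM (median 328) with and 33.8 to 188 CPM (median 108) without IFNg (adjusted p = 0.113), Arg1 was at no more than 4.48 CPM in LPS_lo + IFNg cultures, and Ido1 and 4 other genes of the list were too low to test.

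Upp1, which encodes uridine phosphorylase, was likewise highest with both stimuli. It ran at 86 to 198 CPM (median 132) in LPS_lo + IFNg, 0 to 10.8 CPM (median 0.663) in LPS_lo, 0 to 13.8 CPM (median 4.9) in IFNg and 0 to 1.59 CPM (median 0) in untreated cultures, with no overlap between the first and any other group. Its log2 fold change was 6.05 ± 0.45 (limma adjusted p = 5.26e-15), and the interaction was 4.48 ± 0.62 (adjusted p = 4.93e-06). Within plate MGm160930B the interaction of Upp1 was 2.03 and not called (limma adjusted p = 0.0637). Clic5, which encodes a chloride intracellular channel protein, ran at 92.9 to 189 CPM (median 145) against 0 to 1.86 CPM (median 0.0887), a log2 fold change of 6.69 ± 0.43 (adjusted p = 2.81e-17). Clic5 was uneven with IFNg alone, at 5.72 to 193 CPM (median 83.3), with the 2 middle wells at 5.72 and 6.36 CPM and the 4 edge wells at 73.5 to 193 CPM, and its interaction was not called (1.49 ± 0.59, adjusted p = 0.242). It was called higher in middle wells alone (4.42, limma adjusted p = 3.4e-05).

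Serpina3g and Serpina3f, protease inhibitors of a cluster whose members can share reads and are uncertain for that reason, rose by 6.30 and 4.99 on the log2 scale. Slamf8, a receptor of the SLAM family, ran at 90.8 to 187 CPM (median 135) against 0 to 10.5 CPM (median 1.1) (5.44 ± 0.60, limma adjusted p = 2.20e-09). Cnn3, the actin-binding calponin 3, ran at 22 to 225 CPM (median 52.3) against 0 to 3.81 CPM (median 0.146), where the highest well, replicate 6, was well apart from the next at 57.0 CPM (5.03 ± 0.59, adjusted p = 1.06e-08). Serping1, the inhibitor of complement C1, ran at 70.4 to 257 CPM (median 137) against 0 to 33.1 CPM (median 3.11) (4.72 ± 0.66, adjusted p = 9.08e-07). In all 12 of the genes with the largest rises, each of the 7 LPS_lo + IFNg cultures was above each LPS_lo culture, which is a feature of genes chosen for the size of their rise.

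**Figure D2:**
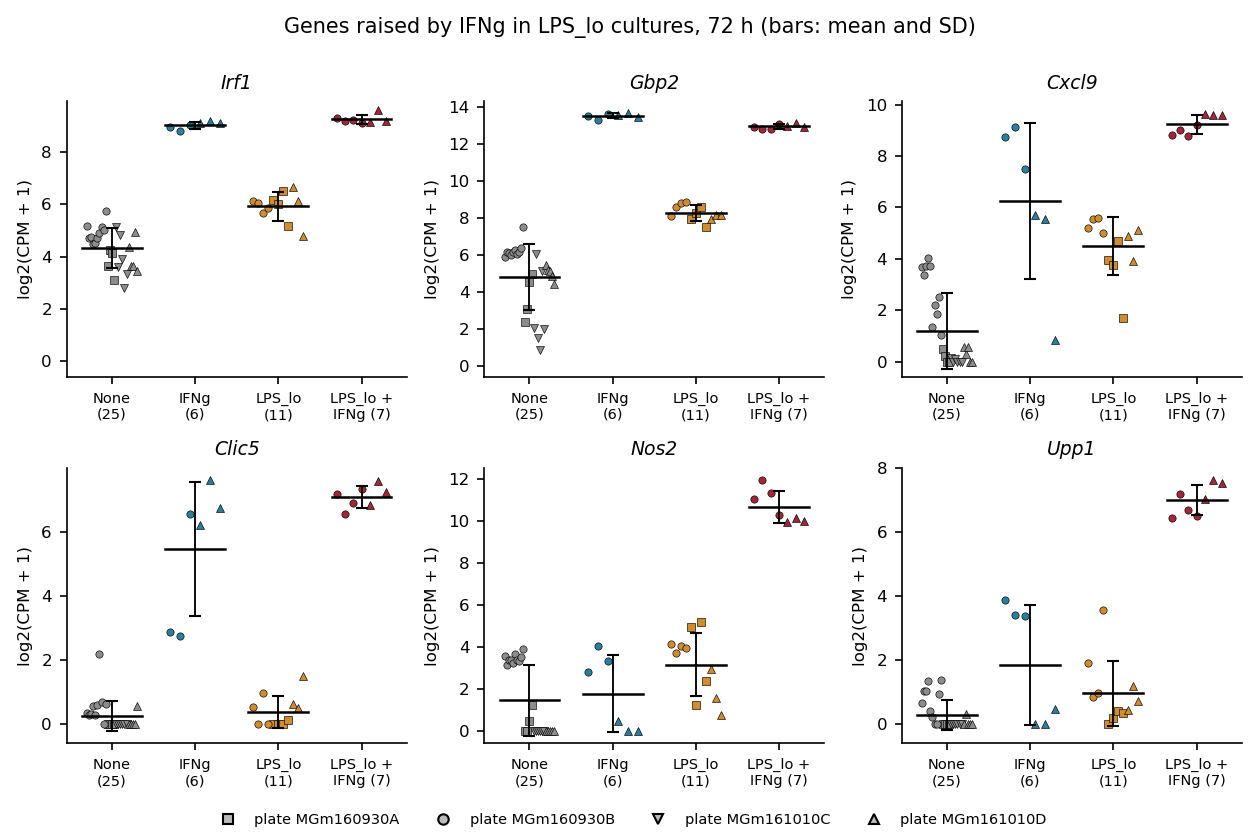
Levels of Irf1, Gbp2, Cxcl9, Clic5, Nos2 and Upp1 as log2(CPM + 1) in each untreated (25), IFNg (6), LPS_lo (11) and LPS_lo + IFNg (7) culture at 72 h, with bars for mean ± SD and the marker shape for the culture plate. Irf1 and Gbp2 are high in both groups with IFNg, Clic5 is uneven with IFNg alone, and Nos2 and Upp1 are high in LPS_lo + IFNg cultures only among these 4 groups, at no less than 965 and 86.0 CPM.

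The 3 ligands of the chemokine receptor CXCR3, which attract activated T cells, all rose, with a median log2 fold change of 4.24. Cxcl9 ran at 439 to 793 CPM (median 594) in LPS_lo + IFNg cultures and 2.22 to 47.7 CPM (median 28.4) in LPS_lo cultures, and Cxcl10 at 374 to 937 CPM (median 615) and 3.99 to 83.3 CPM (median 51.5). Neither overlapped between the groups, and the log2 fold changes were 4.74 ± 0.73 (limma adjusted p = 7.69e-06) and 4.17 ± 0.65 (adjusted p = 9.58e-06). Cxcl11 was near 0 with either stimulus alone, at 0 to 7.19 CPM (median 0) in LPS_lo and 0 to 5.89 CPM (median 1.04) in IFNg cultures, and ran at 13.6 to 76 CPM (median 36.4) with both. It was the one ligand whose response to IFNg was larger with LPS_lo than without it (3.31 ± 0.63, limma interaction, adjusted p = 0.000852). This interaction was 2.81 and not called in middle wells alone (limma adjusted p = 0.122), and 2.64 and not called within plate MGm160930B (adjusted p = 0.0717).

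Of 10 guanylate-binding protein genes tested, which encode large GTPases that act on intracellular pathogens, 7 rose and 3 were not called, with a median log2 fold change of 2.60. Gbp2 ran at 7073 to 8992 CPM (median 7806) against 183 to 470.4 CPM (median 289). The groups were far apart (4.68 ± 0.60, limma adjusted p = 9.78e-08). Gbp5, which takes part in inflammasome activation, ran at 173 to 397 CPM (median 232) against 2.04 to 35.3 CPM (median 11.7) (4.52 ± 0.62, adjusted p = 6.02e-07). Gbp4 and Gbp2b rose by 5.53 and 5.57, and both have close copies (Gbp8 and Gbp2) with which reads may have been shared. Of 10 immunity-related GTPases, which act on pathogen vacuoles, 6 rose and 4 were not called (median 1.91). Igtp ran at 809 to 1377 CPM (median 1064) against 103 to 293 CPM (median 140.3) (2.75 ± 0.43, limma adjusted p = 1.15e-05) and Irgm1 at 153 to 334 CPM (median 183) against 38.6 to 139 CPM (median 52.7) (1.75 ± 0.32, adjusted p = 0.000137), both without overlap. The largest rise of the list was that of Tgtp1, at 3.60, whose copy Tgtp2 rose by 3.17.

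MHC class II genes encode molecules that present peptides to CD4+ T cells. With LPS_lo + IFNg, 4 of them (H2-Aa, H2-Ab1, H2-Eb1 and Cd74) stood far below their level under IFNg alone, whose dose may have differed. H2-Aa, the class II alpha chain, ran at 0.723 to 92.5 CPM (median 52.7) in LPS_lo + IFNg cultures, 0 to 10.5 CPM (median 0.424) in LPS_lo cultures and 329 to 9114 CPM (median 1087) in IFNg cultures. The 7 wells with both stimuli overlapped those with LPS_lo alone and lay entirely below the 6 wells with IFNg alone. H2-Aa rose against LPS_lo (3.37 ± 0.82, limma adjusted p = 0.00871), and the response was -5.76 ± 1.13 on the log2 scale relative to that without LPS_lo (interaction adjusted p = 0.00149). H2-Eb1, the class II beta chain of the other isotype, ran at 0.241 to 126 CPM (median 56.3), 0 to 8.01 CPM (median 0.637) and 424 to 12663 CPM (median 1644) in the same groups. Its rise was 3.19 ± 0.83 (adjusted p = 0.0169) and its interaction -6.05 ± 1.14 (adjusted p = 0.000789). Cd74, the invariant chain that guides class II molecules to their peptides, ran at 0 to 11.6 CPM (median 4.85), 0.532 to 6.39 CPM (median 1.76) and 107 to 553 CPM (median 185). Its first 2 groups overlapped and it was not called against LPS_lo (0.55 ± 0.53, limma adjusted p = 0.805), while the interaction was -6.30 ± 0.73 (adjusted p = 5.99e-08).

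Of the 6 class II genes tested, 3 rose (H2-Aa, H2-Eb1 and H2-DMa) and 3 were not called, and all 6 rose with IFNg alone. H2-Ab1 was not called at 2.51 ± 0.77 (limma adjusted p = 0.0628). H2-DMa, which helps load peptides, rose by 3.56 (adjusted p = 0.00204), the largest value of the list, and its interaction was not called (-0.41, adjusted p = 0.906). Ciita, the master activator of these genes, and 4 others were too low to test. The lowest 2 LPS_lo + IFNg wells for H2-Aa were on plate MGm161010D, whose wells were at 0.723, 3.65 and 52.7 CPM against 38 to 92.5 CPM on plate MGm160930B. Untreated wells were also uneven, at 2.70 to 16.6 CPM on plate MGm160930B and at 0 on 2 other plates. Within plate MGm161010D the log2 fold change of H2-Aa was 1.98 and was not called (limma adjusted p = 0.819), and H2-Eb1 lost its call with library pool in the model (1.96, adjusted p = 0.107). The call of H2-Aa was also lost in a fit of the plates that hold both groups (2.58, adjusted p = 0.167) and in the exact rank-sum test (adjusted p = 0.0945), which called 1 of the 6 class II genes. In IFNg cultures of plate MGm160930B, H2-Aa was at 7205 and 9114 CPM in middle wells and at 1462 CPM at the edge, and in middle wells alone the interaction was -6.44 (limma adjusted p = 0.00377).

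MHC class I genes were high already with LPS_lo. B2m, the light chain common to class I molecules, ran at 5379 to 7806 CPM (median 6190.2) with IFNg and 5173 to 9569 CPM (median 5912) without it, and H2-K1, a class I heavy chain, at 3702 to 9115 CPM (median 7919) and 3999 to 8802 CPM (median 6841). Both overlapped between the groups and neither was called (0.07 ± 0.22 and -0.04 ± 0.30, limma adjusted p = 0.961 and 0.99), while untreated cultures were at 865 to 4073 CPM (median 1702) and 294 to 2110.0 CPM (median 1378). Of 20 class I and peptide supply genes, 3 rose, 0 fell and 17 were not called (median 0.72). Those that rose were Tap1, which carries peptides into the endoplasmic reticulum, and Psme1 and Psme2, the subunits of the proteasome activator PA28. Tap1 ran at 288 to 452 CPM (median 351) against 89.6 to 197 CPM (median 133) (1.37 ± 0.38, adjusted p = 0.0306), and this call was lost with library pool in the model (1.08, adjusted p = 0.0669). Psmb8, an immunoproteasome subunit, ran at 501 to 1358 CPM (median 543) against 248 to 790.2 CPM (median 383) and stayed just under the fold threshold (0.96 ± 0.25, adjusted p = 0.0165). Psmb9 was not called (1.40 ± 0.53, adjusted p = 0.199).

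**Figure D3:**
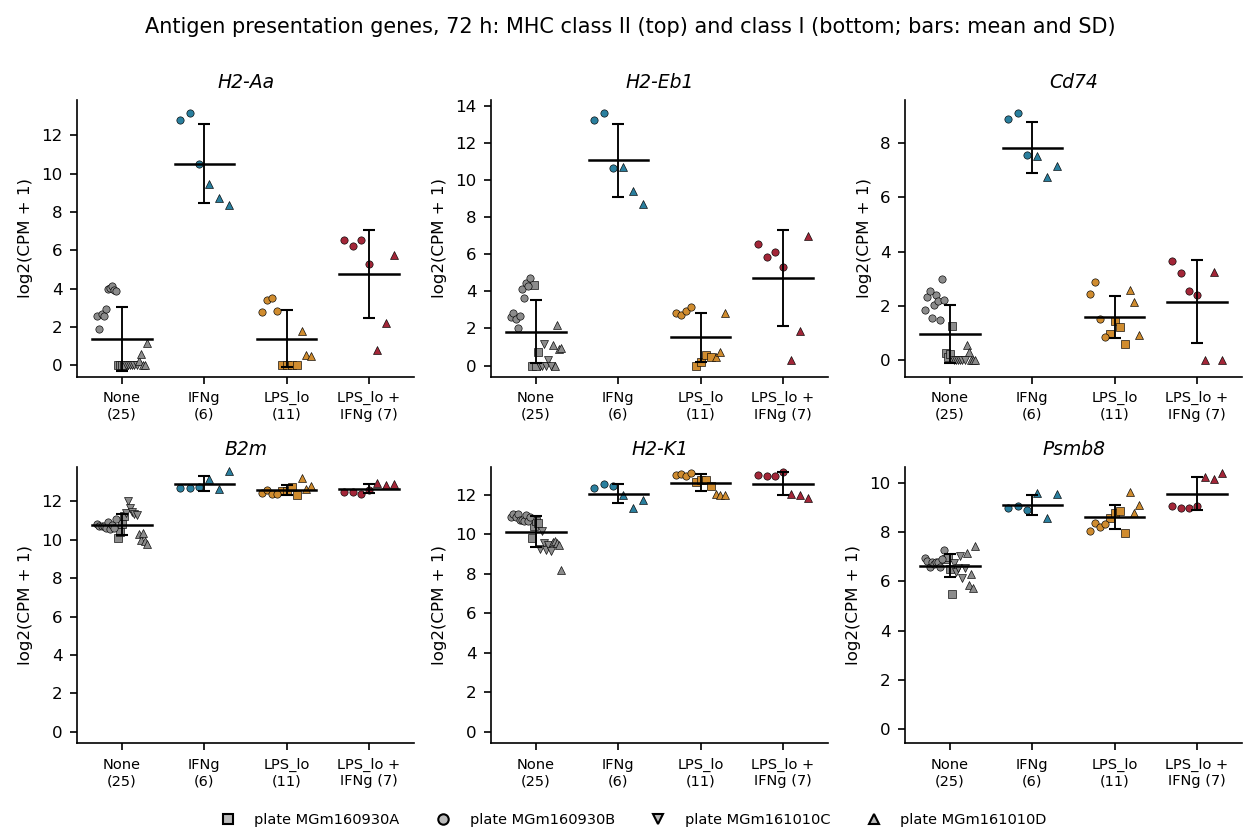
Levels of the class II genes H2-Aa, H2-Eb1 and Cd74 (upper row) and of B2m, H2-K1 and Psmb8 (lower row) as log2(CPM + 1) in each untreated (25), IFNg (6), LPS_lo (11) and LPS_lo + IFNg (7) culture at 72 h, with bars for mean ± SD and the marker shape for the culture plate. In the upper row the 6 IFNg cultures lie above all others, including all 7 LPS_lo + IFNg cultures, and in the lower row the 3 stimulated groups lie close together above most untreated cultures.

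Among inflammatory cytokines and chemokines, 1 of 15 genes tested rose, 0 fell and 14 were not called, with a median log2 fold change of -0.24. The gene that rose was Il27, a subunit of a regulatory cytokine, at 17.4 to 95 CPM (median 51.1) against 1.6 to 13.8 CPM (median 7.74) (2.53 ± 0.63, limma adjusted p = 0.0115), and its call was lost with library pool in the model (1.71, adjusted p = 0.17). Tnf ran at 649 to 1223 CPM (median 1009) against 136 to 402 CPM (median 307). Every LPS_lo + IFNg well was above every LPS_lo well, yet the difference was not called (1.71 ± 0.58, adjusted p = 0.113). In a fit of these 18 cultures alone the same value had an adjusted p of 9.03e-07. Ccl5, a chemokine for T cells and monocytes, was at 17948 to 30247 CPM (median 20341) and 5350.5 to 15214 CPM (median 12432), again without overlap and not called (0.92 ± 0.56, adjusted p = 0.591). Il1b was at 11.6 to 31 CPM (median 21.3) and 4.54 to 38.8 CPM (median 26.4), with overlap (adjusted p = 0.946), and Il10 stayed at no more than 12.5 CPM in both groups (adjusted p = 0.481). Il6, Il12b and 5 more of the list were too low to test. Of 13 genes for NF-kB subunits and their inhibitors, 0 were called in limma (median 0.35), with 4 at an unadjusted p under 0.05 and 2 called higher in the exact rank-sum test.

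Receptors and ligands for T cells rose in part. Of 7 costimulatory and checkpoint genes tested, 2 rose and 5 were not called. Cd40, the receptor for help from T cells, ran at 77.6 to 136 CPM (median 93.8) against 3.03 to 37.6 CPM (median 20.8) (2.63 ± 0.56, limma adjusted p = 0.00173), and Cd86, a ligand of CD28, at 41 to 60.9 CPM (median 56.1) against 1.91 to 24.7 CPM (median 10.5) (2.31 ± 0.51, adjusted p = 0.00283). Neither overlapped between the groups. Cd274, which encodes PD-L1, overlapped, at 66.4 to 260.4 CPM (median 229) against 29.5 to 232 CPM (median 62.1) (1.32 ± 0.41, adjusted p = 0.0628).

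Of 13 complement genes tested, 2 rose (C3 and Serping1), 1 fell (Cfp) and 10 were not called. C3, the central complement component, ran at 109.6 to 174 CPM (median 136) against 10.8 to 36.6 CPM (median 28), without overlap (2.38 ± 0.56, limma adjusted p = 0.00646). Cfp, or properdin, which stabilises the C3 convertase, had the largest fall of the list, from 1556 to 3217 CPM (median 2328) to 494 to 1367 CPM (median 703) (-1.5 ± 0.32, adjusted p = 0.00144). C1qa was at 1489 to 2289 CPM (median 1945) and 991 to 1921 CPM (median 1645), with overlap (adjusted p = 0.766). Among 5 Fc gamma receptor genes, the activating Fcgr4 rose (1.87 ± 0.52, limma adjusted p = 0.0339), the inhibitory Fcgr2b fell (-2.71 ± 0.52, adjusted p = 0.000377) and 3 were not called, Fcgr1 among them (0.10 ± 0.30, adjusted p = 0.958). Of 16 inflammasome and cell death genes, 2 rose: Il18bp, which encodes a secreted inhibitor of IL-18 (3.03 ± 0.55, adjusted p = 0.000141), and Casp1, the protease that matures IL-1 beta and IL-18 (1.53 ± 0.24, adjusted p = 9.15e-06).

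The genes that fell most included an acute phase gene and a chemokine. Saa3, a serum amyloid A protein made by activated macrophages, ran at 95.2 to 326 CPM (median 211) in LPS_lo + IFNg cultures, 2143 to 5480.0 CPM (median 3835) in LPS_lo cultures and 14.8 to 558 CPM (median 91.9) in untreated cultures. The highest LPS_lo + IFNg well was far below the lowest LPS_lo well and within the range of untreated wells. The log2 fold change was -4.17 ± 0.57 (SE, limma adjusted p = 4.75e-07). Ccl9, a CC chemokine of mouse macrophages, ran at 15.5 to 41.4 CPM (median 30.3) against 397 to 695 CPM (median 491), also without overlap (-4.14 ± 0.40, adjusted p = 5.73e-11), and untreated cultures were at 8.17 to 125 CPM (median 68.4).

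Siglece, an inhibitory receptor for sialic acid, ran at 1.94 to 17.4 CPM (median 4.45) against 29.7 to 169 CPM (median 88.3), without overlap (-3.46 ± 0.53, limma adjusted p = 8.12e-06). Cd5l, a secreted regulator of macrophage lipid metabolism, was all but absent with IFNg, at 0 to 1.16 CPM (median 0.964) against 3.81 to 43.9 CPM (median 24.8) (-3.52 ± 0.57, adjusted p = 2.11e-05). Gdf15, a stress cytokine of the TGF-beta family, ran at 2.89 to 16 CPM (median 8.95) against 37.8 to 232 CPM (median 118) (-3.53 ± 0.57, adjusted p = 1.68e-05). Each of these 3 genes separated the groups completely. Isg20, an exonuclease of the interferon response, also did, at 0.215 to 7.65 CPM (median 2.99) against 18.7 to 55.3 CPM (median 28) (-3.22 ± 0.50, adjusted p = 9.58e-06). Slfn4, a Schlafen gene also counted among interferon-induced genes, overlapped at 0.861 to 26.4 CPM (median 9.95) against 21.6 to 276 CPM (median 135) (-3.66 ± 0.57, adjusted p = 9.74e-06).

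Sh2d3c, an adaptor protein, and Cgn, the junction protein cingulin, fell, with log2 fold changes of -3.62 ± 0.76 and -3.26 ± 0.51 (limma adjusted p = 0.00144 and 9.79e-06), both without overlap. Fcrls, a marker of resting microglia, overlapped at 6.51 to 332 CPM (median 33.7) against 139 to 796 CPM (median 345) (-3.12 ± 0.65, adjusted p = 0.00127). Saa3, Ccl9 and Siglece belong to the 44 of the 140 genes that fell (31.4%) whose LPS_lo median was at least 2-fold over the untreated median, against 7.28% of all genes tested, a share that choosing genes by a higher level in LPS_lo cultures favours.

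**Figure D4:**
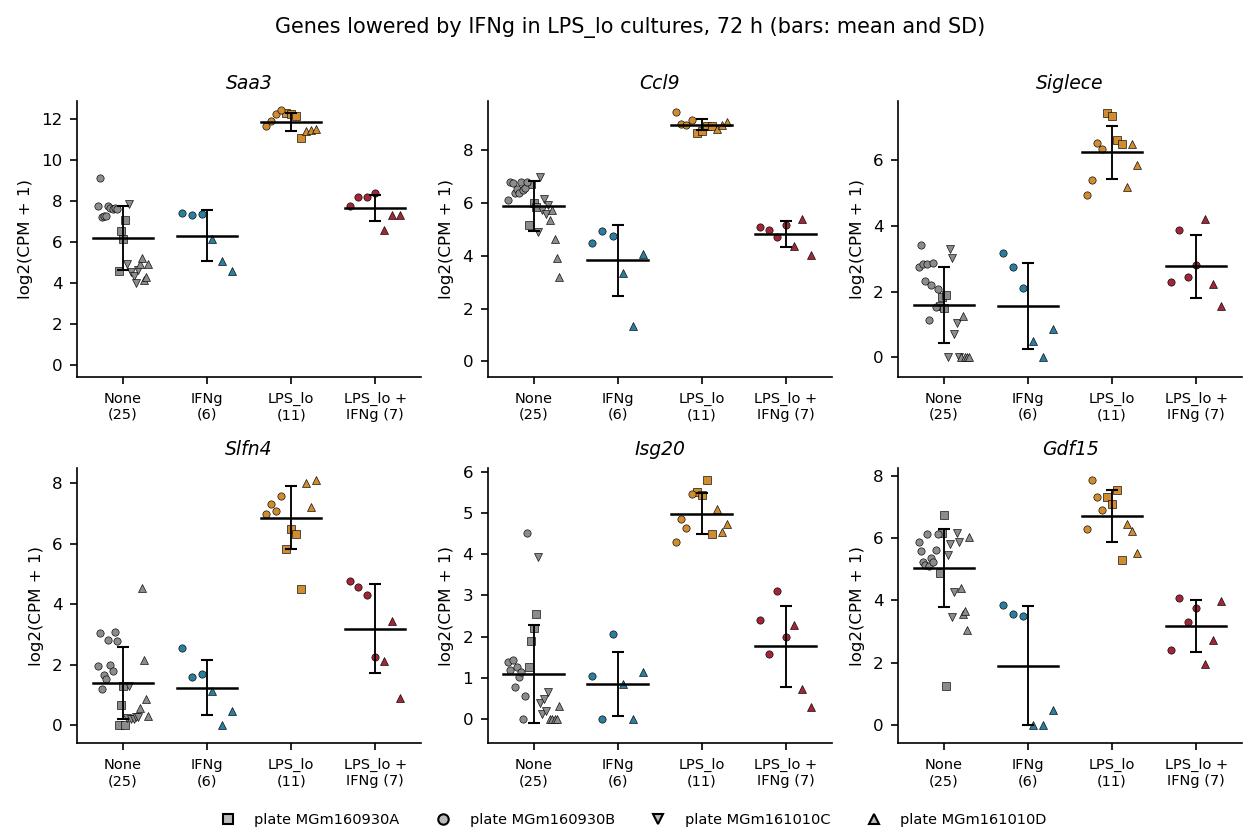
Levels of Saa3, Ccl9, Siglece, Slfn4, Isg20 and Gdf15 as log2(CPM + 1) in each untreated (25), IFNg (6), LPS_lo (11) and LPS_lo + IFNg (7) culture at 72 h, with bars for mean ± SD and the marker shape for the culture plate. LPS_lo cultures are highest for each gene on average, and LPS_lo + IFNg cultures lie below all of them except for Slfn4, where the groups overlap at 0.861 to 26.4 and 21.6 to 276 CPM.

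Of 12 scavenger and lipid receptor genes tested, 0 rose, 4 fell and 8 were not called, with a median of -1.01 against -0.09 over all genes. Those that fell were Cd5l, the cholesterol exporter Abca1 (-1.46, limma adjusted p = 0.0275), and Gpnmb (-1.08, adjusted p = 8.31e-05) and Spp1 (-2.27, adjusted p = 3.28e-07), both markers of lipid-handling macrophages. Of 24 type I interferon antiviral genes, 0 were called in limma, with a median of -0.43, 6 at an unadjusted p under 0.05 and 2 called lower in the exact rank-sum test. Ifit3 was at 1322 to 2236 CPM (median 1867) with and 1019.6 to 2839 CPM (median 1707) without IFNg, with overlapping wells (0.05 ± 0.62, adjusted p = 1.00), and Irf7, the amplifier of type I interferon, was at 518 to 1075 CPM (median 765) and 831 to 1580.4 CPM (median 1189) (-0.65 ± 0.37, adjusted p = 0.529). Of 13 genes of LPS sensing, 0 were called in limma (median -0.20), with 3 at an unadjusted p under 0.05 and the same number called lower in the exact rank-sum test. Tlr4 was at 4.3 to 48.2 CPM (median 14.5) and 3.39 to 28.9 CPM (median 13.2) (limma adjusted p = 0.84), and Cd14, its coreceptor, at 23.9 to 63.5 CPM (median 41.5) and 56.8 to 175 CPM (median 94) (adjusted p = 0.236), with overlap for both. Tlr2 was at 25.3 to 47.8 CPM (median 36.4) against 54.3 to 131 CPM (median 87.9) (-1.22 ± 0.44, adjusted p = 0.171) and Irak3, a brake on this pathway, at 30.1 to 60.7 CPM (median 36.4) against 61.9 to 179.7 CPM (median 99.2) (-1.29 ± 0.55, adjusted p = 0.294). Their wells did not overlap, and in the fit of these 18 cultures alone both were called lower, with adjusted p of 4.18e-04 and 3.34e-04. The 16 cell cycle genes (median 0.42), the 7 matrix metalloproteinase and inhibitor genes (median -0.89) and the 4 IL4 response genes tested (median -1.13) had 0 calls in limma, with 2, 4 and 1 of them at an unadjusted p under 0.05 and 1, 0 and 0 called in the exact rank-sum test. Over all 11631 genes tested, 1359 were at such a p, and the rank-sum test called 188 higher and 179 lower. Mki67 was at most 10.2 CPM in both groups.

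The study grouped co-regulated genes into modules on its own cultures, so counts within a module are not independent evidence of its direction. Of the 20 genes of module PI_blue, 17 rose and 0 fell (median 3.38), and of the 43 of PI_turquoise, 25 rose and 0 fell (median 1.5). In BR_blue 17 of 45 rose and 0 fell (median 1.40), and in CY_red 9 of 28 tested rose and 0 fell (median 1.19). YE_turquoise showed the opposite count, with 12 of 102 lower, 0 higher and a median of -0.36, and Saa3, Siglece and Gdf15 are among the 12 with Lcn2, an iron-sequestering acute phase protein. In BR_turquoise, the module of antiviral genes, 144 of 147 were not called and 3 fell (median -0.08). CY_turquoise had 1 rise (C3) and 1 fall (Ccl9) among 38. CY_brown (27 tested) and CY_yellow (21) had 0 calls in limma, with 6 and 5 genes at an unadjusted p under 0.05 and 2 and 1 called lower in the exact rank-sum test. Of the 4 hub genes Ifit3, Naaa, Clec4e and Irak3, 0 were called in limma, with 2 at an unadjusted p under 0.05 and 1 called higher and 1 lower in the exact rank-sum test. Naaa was at 33.8 to 66.7 CPM (median 42.6) and 5.68 to 26 CPM (median 10.8) (1.80 ± 0.54, limma adjusted p = 0.058), and Clec4e at 19.8 to 68.3 CPM (median 53.5) and 12.31 to 143 CPM (median 73.6) (-0.36 ± 0.68, adjusted p = 0.922).

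Because the IFNg dose of the combination is not known, LPS_lo and a different IFNg dose cannot be told apart in any interaction or comparison with IFNg cultures. To set the response with LPS_lo beside that without it, IFNg alone was compared with untreated cultures in the same fit. This comparison shares no culture with the first. It called 1418 genes (12.2%), of which 418 (3.59%) were higher and 1000 (8.6%) lower. In middle wells alone it called 584 genes, 297 higher and 287 lower, and the interaction described below called 291. Of the genes called higher, 84 were shared, which is 67.7% of the 124 with LPS_lo and 20.1% of the 418 without it. Of those called lower, 58 were shared, or 41.4% of the 140 and 5.8% of the 1000. The interaction tests the difference of both responses gene by gene, and it called 151 genes (1.3%), 63 (0.542%) with a higher and 88 (0.757%) with a lower log2 fold change with LPS_lo. Of the 63, 47 fell with IFNg alone and were not called with LPS_lo, and 9 rose with LPS_lo. Of these 88 genes, 66 rose with IFNg alone, and 51 of the 66 (77.3%) had a median in LPS_lo cultures at least 2-fold over that of untreated ones. The share was 44.5% among all 418 genes that IFNg alone raised and 7.28% among all genes tested, and the interaction itself selects for it, since LPS_lo cultures enter with a minus sign and untreated ones with a plus sign. In 46 of the 66, LPS_lo + IFNg cultures did not differ from IFNg cultures by the call rule. One feature without a name of its own was called in opposite directions, falling with LPS_lo and rising without it, and its rise was not called in middle wells alone.

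**Figure D5:**
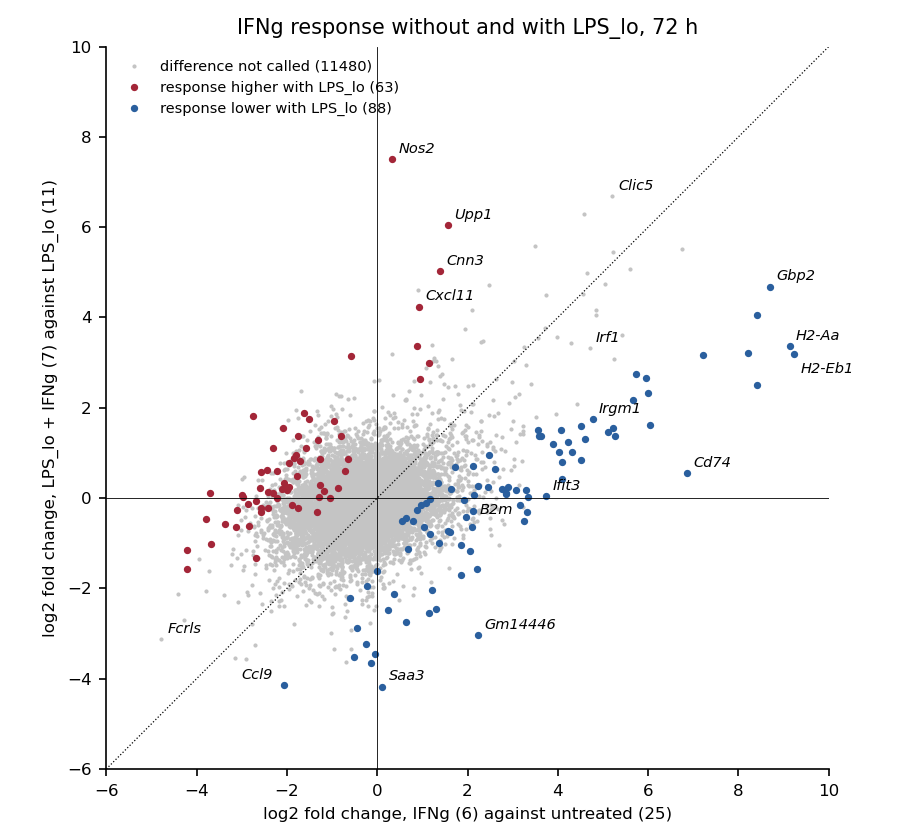
Response to IFNg without LPS_lo (x axis, log2 fold change of 6 IFNg over 25 untreated cultures) and with LPS_lo (y axis, log2 fold change of 7 LPS_lo + IFNg over 11 LPS_lo cultures) for the 11631 genes tested, with the dotted line at equal responses. The 63 genes called higher and the 88 called lower in the interaction are coloured, and Nos2 and Upp1 lie far above the line while Cd74 and H2-Aa lie far below it.

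The smaller responses with LPS_lo took 3 forms in the named genes. For B2m, H2-K1 and Ifit3, the level in LPS_lo cultures was already in the range of LPS_lo + IFNg cultures, and the interactions were -2.07 ± 0.30, -1.97 ± 0.41 and -3.69 ± 0.85 (limma adjusted p = 7.27e-06, 0.0038 and 0.0108). For Gbp2, Irgm1, Igtp and Tap1, LPS_lo cultures lay between untreated cultures and those with IFNg. Gbp2 for example was at 0.797 to 181 CPM (median 35.4) in untreated, 10074 to 12982 CPM (median 11900.4) in IFNg, 183 to 470.4 CPM (median 289) in LPS_lo and, as given above, at least 7073 CPM in LPS_lo + IFNg cultures, and its interaction was -4.02 ± 0.82 (limma adjusted p = 0.00248). Among gene lists, 8 of 10 immunity-related GTPases, 5 of 10 guanylate-binding proteins, 7 of 20 class I and peptide supply genes and 7 of 24 type I interferon antiviral genes were called lower in the interaction. Over all genes tested the share called lower was 0.757%. None of these lists' genes was called higher, which says little for lists of this size, since the share over all genes tested was 0.542%. The class II genes H2-Aa, H2-Ab1, H2-Eb1 and Cd74 formed the third kind, with LPS_lo + IFNg cultures called lower than IFNg cultures. Gbp2, at no more than 8992 CPM in LPS_lo + IFNg cultures, also lay below every IFNg culture, but this difference was not called.

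Among falls, the response to IFNg was more negative with LPS_lo for Saa3 (-4.29 ± 0.78, limma interaction, adjusted p = 0.000465), Slfn4 (-3.51 ± 0.79, adjusted p = 0.00759), Siglece (-3.42 ± 0.73, adjusted p = 0.00473) and Isg20 (-2.98 ± 0.69, adjusted p = 0.011). That of Isg20 was -2.59 and not called in middle wells alone (adjusted p = 0.148). IFNg alone left these genes uncalled, with log2 fold changes of 0.12, -0.14, -0.04 and -0.24. Saa3 was at 23 to 168 CPM (median 112) in IFNg and 14.8 to 558 CPM (median 91.9) in untreated cultures, which overlapped. Gdf15, Cgn and Fcrls fell with IFNg alone as well, at -3.15, -2.71 and -4.79, and their interactions were not called (-0.39 ± 0.78, -0.55 ± 0.70 and 1.67 ± 0.89, limma adjusted p = 0.875, 0.791 and 0.429). Ccl9 fell in both comparisons, at -2.07 without and -4.14 with LPS_lo (interaction -2.06 ± 0.55, adjusted p = 0.0381). This last call was lost in 10 of 31 alternatives, in 6 of them through leaving out 1 culture.

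LPS_lo + IFNg cultures were also compared directly with IFNg cultures, in a contrast added after the class II values were seen. The groups share plates but not well positions: on plate MGm161010D all 3 IFNg wells were edge wells and all 3 LPS_lo + IFNg wells middle wells. On that plate they were also in different library pools, so position, pool and treatment cannot be told apart there. The LPS_lo + IFNg cultures are those of the first comparison. By limma 429 genes (3.69%) were called, 300 (2.58%) higher and 129 (1.11%) lower with LPS_lo, and this count moved widely with the model (183 with library pool as a term, 699 with culture plate, 202 in middle wells alone). Among the 66 genes with a smaller response that IFNg alone raised, 13 were lower in LPS_lo + IFNg than in IFNg cultures and 7 were higher. The 66 were selected with these same wells, by low LPS_lo + IFNg and high IFNg values, which favours lower values in this contrast. Cd74, H2-Eb1, H2-Ab1 and H2-Aa had the largest of these differences in response, and against IFNg cultures they were at -5.67, -6.34, -6.25 and -5.75 on the log2 scale (limma adjusted p = 1.96e-09, 6.24e-06, 1.86e-06 and 3.89e-05). In middle wells alone, with 2 IFNg wells, these values were -6.88, -8.81, -8.12 and -8.31 and all 4 were called. Outside the rule for named genes, and chosen after its values were seen, Ly6a, which encodes the surface protein Sca-1, was at 48.9 to 180.0 CPM (median 110.4) with both stimuli and 471 to 1021 CPM (median 854) with IFNg (-2.80 ± 0.61, adjusted p = 0.00329). Ccl5 lay on the other side, at 130.3 to 908 CPM (median 395) in IFNg cultures (5.82 ± 0.65, adjusted p = 3.94e-09), as did 9 of the 24 type I interferon antiviral genes, which were higher with LPS_lo, and 0 of which were lower.

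A group of 9 genes was called higher in LPS_lo + IFNg cultures than with either stimulus alone and also had a larger response in the interaction. They were Nos2, Upp1, Cnn3, Cxcl11, Ptgs2, Fzd1, Selm, Lysmd2 and Plbd1, of which the last 5 fall outside the rule and were chosen after their values were seen. All 3 calls use the same LPS_lo + IFNg wells, which favours their agreement. Plbd1, at no more than 4.44 CPM in the other 3 groups, entered the test only through LPS_lo + IFNg wells. Lysmd2, at no more than 6.05 CPM in IFNg, 0.879 CPM in LPS_lo and 0.599 CPM in untreated cultures, did so mainly through them. Their calls are no independent support. In middle wells alone, 4 of the 9 kept all 3 calls (Nos2, Upp1, Ptgs2 and Lysmd2), and Plbd1 was too low to test there. Cnn3 was then at 1.11 against IFNg cultures (limma adjusted p = 0.549) and at 1.61 in the interaction (adjusted p = 0.483), and within plate MGm160930B it was at 1.42 and 1.40 (adjusted p = 0.2 and 0.275). On that plate the interaction was also not called for Upp1 (2.03, limma adjusted p = 0.0637), Ptgs2 (1.89, 0.0834), Lysmd2 (1.75, 0.135) and Cxcl11 (2.64, 0.0717). Only Nos2 and Fzd1 kept all 3 calls there. Ptgs2, the inducible cyclooxygenase of prostaglandin synthesis, ran at 57.9 to 146 CPM (median 92.8), against 2.5 to 19.2 CPM (median 5.71) in LPS_lo and 0 to 10.35 CPM (median 1.31) in IFNg cultures. Its log2 fold change over LPS_lo was 3.37 ± 0.43 (limma adjusted p = 1.18e-07) and its interaction 2.49 ± 0.59 (adjusted p = 0.0143). Fzd1, a Wnt receptor, was low throughout, at 2.58 to 28.9 CPM (median 16) against 0 to 3.18 CPM (median 0.0887) and 0 to 3.72 CPM (median 0.53) (interaction 3.74 ± 0.74, adjusted p = 0.0018).

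The other cultures at 72 h place these values. Nos2 reached at most 76.4 CPM in any other combination with LPS_lo and 43.3 CPM with a higher dose of LPS, while TNFa + IFNg cultures (n = 8) ran at 87.1 to 1645 CPM (median 307.5). Upp1 was at 51.5 to 171.5 CPM (median 119.5) in TNFa + IFNg cultures, at 0 to 93.6 CPM (median 30.8) with the higher dose of LPS (n = 13), and at no more than 90.6 CPM with LPS_lo + TGFb. Ptgs2 was at 3.02 to 184 CPM (median 41.7) with the higher dose of LPS, which overlaps LPS_lo + IFNg cultures, and Cxcl11 was at 0 to 68.5 CPM (median 36.7) in TNFa + IFNg cultures, close to its median with LPS_lo + IFNg. Saa3, at 95.2 to 326 CPM with LPS_lo + IFNg, was also low in LPS_lo + IL4 cultures (n = 5), at 215 to 390 CPM. Ccl9, at 15.5 to 41.4 CPM with LPS_lo + IFNg, was also low in LPS_lo + TGFb cultures (n = 8), at 33.7 to 80.2 CPM, and was at 283 CPM or more in every other combination with LPS_lo. H2-Aa stood at 8.43 to 1403 CPM (median 511) with TNFa + IFNg, which overlaps LPS_lo + IFNg cultures at 0.723 to 92.5 CPM but has a median above theirs of 52.7 CPM. These groups were not in the fit and were not tested.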

How the data were processed

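The authors assigned 3′-end reads with salmon 0.7.1 to Ensembl build 81 transcripts, summed them per gene, divided by all mapped reads and deposited CPM (the paper writes TPM) for 45581 features. The submitters' processing notes list the build mm8. Cultures under 1 M mapped reads (M for 1000000) had been discarded by the authors. In some LPS_lo cultures only 76.2% of low values were within 0.1 of whole reads, so reads were not recovered and no count model was used. limma 3.58.1 (R 4.3.3; lmFit, eBayes with trend) was fitted to log2(CPM + 1), which understates changes of low genes, over genes above 5 CPM in at least 4 of 49 cultures. Genes were called at an adjusted p (Benjamini-Hochberg) below 0.05 and a log2 difference of 1 or more in size. Other steps used Python 3.11.15, numpy 2.4.6, pandas 2.3.3, scipy 1.17.1 and matplotlib 3.10.9. The fit was tested on simulated data. Named genes were the 12 largest rises and 12 largest falls among called genes (at least 10 CPM in the higher group, same direction with plate in the model, unnamed features counted only) plus a fixed list and the extremes of each list. Cultures, genes and lists were chosen with earlier results of these data known. Gene totals are not strand-resolved by any statement used here, and copies or overlapping genes may share reads. Some genes that the rule names are not reported here.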

Additional observations from a re-analysis of the deposited data

Results flagged for a closer look

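Single wells stood apart from the rest of their group in 9 of the 129 groups of values tested with Dixon's criterion, which chance does in about 1 in 20 groups. In LPS_lo + IFNg cultures, replicate 6 was highest for Cnn3 at 225 CPM (next 57.0 CPM), for Tmem119, a marker of resting microglia, at 38.2 CPM (next 4.24 CPM), and for Irf1 at 771 CPM (next 629 CPM). Replicate 5 was lowest for Serpina3f at 12.2 CPM (next 40.4 CPM) and for the unnamed feature Gm14446 at 0 CPM (next 3.86 CPM). In IFNg cultures, replicate 4 was lowest for Ifngr2 at 14.3 CPM (next 96.6 CPM) and highest for Irf8 at 1800 CPM (next 966 CPM), replicate 5 was highest for Cgn at 19 CPM (next 8.88 CPM) and replicate 6 was lowest for Cd40 at 0.415 CPM (next 18.3 CPM).

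The response to IFNg differed with and without LPS_lo for 151 genes in the limma interaction, and for Gm14446 the responses were opposite in direction, with a difference of -5.28 on the log2 scale. In middle wells alone its response without LPS_lo was 1.09 and not called (limma adjusted p = 0.611).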

How the results depend on the processing

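The first comparison, with 264 calls, gave 452 in a fit of its 18 cultures alone, 533 within plate MGm160930B and 46 within plate MGm161010D, where 3 wells met 3, and 220 to 284 without any 1 culture. Of its 264 genes, 245 were also called with culture plate in the model, 215 with library pool and 40 within plate MGm161010D, and under none of these did a called gene turn its direction. The same wells enter these fits, which favours an unchanged direction. IFNg against untreated cultures (1418) gave 933 with cultures of at least 2 M mapped reads, 625 within plate MGm161010D and 586 in the exact rank-sum test. It gave 1366 to 1437 without any 1 LPS_lo + IFNg or LPS_lo culture, none of which is in this comparison. No IFNg or untreated culture was left out in any fit of this kind, so dependence on single wells of these groups was not tested. The interaction (151) gave 276 with culture plate in the model, 229 with library pool, 750 within plate MGm160930B and 38 within plate MGm161010D, and 121 to 153 without any 1 LPS_lo + IFNg or LPS_lo culture. LPS_lo + IFNg against IFNg (429) gave 699 with culture plate, 183 with library pool, 136 with these groups alone, 238 with cultures of at least 2 M mapped reads, and 323 to 430 without any 1 LPS_lo + IFNg or LPS_lo culture. The exact rank-sum test gave 0 there, with 1111 genes under an unadjusted p of 0.05 and a smallest possible p of 0.00117, and limma gave the 429. Middle wells alone, with 10635 genes tested, gave 738, 584, 291 and 202 genes in the 4 comparisons in this order, and the share of higher genes in the second went from 29.5% to 50.9%. The cause of these shifts was not tested.

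All 40 named genes called in the first comparison kept their direction under every alternative, which the reuse of the same wells favours, and 37 kept the call with every culture left out. The others included H2-Eb1 (without LPS_lo + IFNg replicates 1, 2, 3 or 7, adjusted p = 0.0512 to 0.0749) and Tap1 (without LPS_lo + IFNg replicates 1, 2, 3, 5 or 6 or LPS_lo replicate 8, 0.0514 to 0.0717). Library pool in the model ended 4 of the 40 calls, those of H2-Eb1, Tap1 and Il27 among them, and plate MGm161010D alone ended 21. In the interaction, the call of Ccl9 was lost without LPS_lo + IFNg replicates 2, 3, 5 or 7 or LPS_lo replicates 1 or 4, and that of Cd5l without LPS_lo + IFNg replicate 6 or LPS_lo replicate 3. Directions turned within plate MGm160930B for Sh2d3c against IFNg cultures (-1.58) and for Cgn in the interaction (1.11), and in middle wells alone against IFNg cultures for Gbp2b (-2.34), Il1b (-2.19) and Il27 (-0.18). Scaling each culture by its median ratio gave 273 genes in the first comparison, and 54.6% of them were higher against 47.0% before scaling. Cell lot could not be put in the model because all cultures compared came from 1 lot. No paired analysis was possible because the labels give the cultures no replicate numbers, and those used here follow accession order. Low genes rest on few reads, since the shallowest LPS_lo culture held 1.05 M mapped reads.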
